A study of Mus musculus with 6 samples.

Results

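Alveolar type 2 cells are the surfactant-producing cells of the lung epithelium, and 10 genes that mark them were followed in the lungs of mice given the complement protein C1q. The genes were taken by symbol from a count table of 26890 genes: the surfactant proteins Sftpc, Sftpb, Sftpa1 and Sftpd, the surfactant-processing and storage genes Napsa, Abca3 and Lamp3, the lipid and phosphate genes Lpcat1 and Slc34a2, and the transcription factor Etv5. All 10 were found, and all 10 were among the 13473 genes that passed the filter on low counts. The C1q group was 3 lung samples of C57BL/6 WT mice labelled C1q (20 µg per mouse, into the trachea), set against 3 lung samples of C57BL/6 WT mice labelled saline. Both groups were collected at day 3 and digested, and the middle layer of a Percoll gradient was sequenced from transcript 5′ ends, so cells outside that layer were not measured. The labels do not say that each sample came from its own animal, so p-values describe the spread between these samples, which may be technical.

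Surfactant is a film of phospholipid and protein that lowers surface tension at the air-liquid border of the alveolus. Type 2 cells assemble its lipids and the hydrophobic proteins SP-B and SP-C in lamellar bodies and secrete them, and they can also divide and give rise to the flat type 1 cells. SP-A and SP-D are collectins, soluble defence proteins with a collagen stem and a sugar-binding head, and C1q shares the collagen stem.

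Library totals lay between 2227619 and 3650793 counts in the C1q samples and between 2577429 and 2991562 in the saline samples. The entry LOC118568312 alone took 9.63% to 13.1% of the counts in C1q libraries and 7.38% to 12.2% in saline libraries. Levels below are CPM, the usual depth-scaled count unit, after TMM scaling, which sets library sizes so that most genes do not differ. Of the 13473 genes tested, 4 were called at an adjusted p under 0.05 (0.0297%), all higher in C1q libraries and none of them a type 2 cell gene.

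All 10 genes were well detected, though bulk RNA does not show which cells their counts came from. They made up 3.31% to 3.63% of all counts in C1q libraries and 2.59% to 4.35% in saline libraries. The lowest count of any of them in any library was 224, for Etv5. Of 19 further type 2 markers with a row in the table, 18 passed the filter, including the chemokine Cxcl15 at 2723 ± 109 CPM in C1q and 2233 ± 535 CPM in saline libraries (SD, n = 3 each). Dlk1 was the 1 row that did not pass, and Sftpa2 had no row in the table analysed here.

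Because the libraries read transcript starts, the stretches just before the annotated starts of Sftpb and Sftpa1 are shown. These genes were chosen, after their values were seen, because they ordered the 6 libraries identically from highest to lowest. Capitals mark TATAA, the TATA box core, and CTCAAG, a form of the site bound by the lung transcription factor NKX2-1. Both sequences are on the plus strand, 170 bases long and end at the last base before the RefSeq start (GRCm38.p6), at chr6:72304440-72304609 for Sftpb and chr14:41131618-41131787 for Sftpa1.
Sftpb: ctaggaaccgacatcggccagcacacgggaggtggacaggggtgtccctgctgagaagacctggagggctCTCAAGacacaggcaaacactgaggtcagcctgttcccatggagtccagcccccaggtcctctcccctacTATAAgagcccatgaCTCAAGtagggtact
Sftpa1: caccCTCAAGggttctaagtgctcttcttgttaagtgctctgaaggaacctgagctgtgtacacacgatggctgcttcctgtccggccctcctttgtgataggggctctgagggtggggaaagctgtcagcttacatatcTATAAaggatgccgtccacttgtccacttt

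Both genes hold TATAA beginning 30 bases before the start. Sftpb holds CTCAAG beginning 100 and 15 bases before the start, and Sftpa1 holds it 166 bases before the start. RefSeq promoter entries matched 7 of the 10 genes, and none of Slc34a2, Lpcat1, Lamp3, Etv5 and Abca3 had either motif in the 250 bases before an annotated start. Searched on both strands, TATAA was found in 22.8% and CTCAAG in 13.3% of 32851 promoter entries of that length, and the motifs do not overlap each other. A letter match is a description and does not show that a factor binds there.

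The transcripts of SP-C and SP-B did not pass the test, and their C1q values lay within the range of the saline values. Sftpc, which encodes the small hydrophobic peptide SP-C, stood at 24418, 21908 and 21460 CPM in C1q replicates 1 to 3, against 21771, 32862 and 15953 CPM in saline replicates 1 to 3. The highest and the lowest of the 6 values were both saline libraries, and the C1q libraries fell between them. The log2 fold change of Sftpc (C1q over saline) was -0.058 ± 0.26 (SE), with a 95% interval of -0.62 to 0.51 and an adjusted p of 0.963. Without saline replicate 2 it was 0.27, and without saline replicate 3 it was -0.27.

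Sftpb encodes SP-B, which is required for lamellar bodies and for the surface film. Its level was 4755, 5086 and 4937 CPM in C1q replicates 1 to 3, against 4182, 5428 and 3485 CPM in saline replicates 1 to 3. The log2 fold change was 0.17 ± 0.19 (95% interval -0.25 to 0.60, adjusted p = 0.805), and it was 0.37 without saline replicate 2 and 0.037 without saline replicate 3. The groups overlapped, with saline replicate 2 above every C1q library and the other saline libraries below them.

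The collectin genes Sftpa1 and Sftpd lie 35761 bases apart on opposite strands of chromosome 14 of GRCm38, and their values differed in pattern. Sftpa1, for SP-A, stood at 3637, 3998 and 3730 CPM in C1q replicates 1 to 3, against 3566, 4756 and 2804 CPM in saline replicates 1 to 3. Its log2 fold change was 0.031 ± 0.20 (95% interval -0.42 to 0.48, adjusted p = 0.977), and its sign changed without C1q replicate 2 (-0.0083) and without saline replicate 3 (-0.13).

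Sftpd, for SP-D, stood at 1076, 836 and 922 CPM in C1q replicates 1 to 3, against 680.3, 834 and 576 CPM in saline replicates 1 to 3. The C1q libraries lay above the saline range, though C1q replicate 2 and saline replicate 2 were nearly level. The log2 fold change was 0.44 ± 0.18 (95% interval 0.041 to 0.84), a 1.36-fold higher mean, and Sftpd missed the threshold over all genes (adjusted p = 0.602). It was the 1 gene of the 10 with an unadjusted p under 0.05 in the higher direction, where 4.22% of all genes tested had one, and 0 of the 10 had one in the lower direction, where 3.94% of all genes tested had one.

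Count ratios within a library do not depend on scaling, and these were chosen after the values were seen, so they are given with no test. There were 29.6, 20.9 and 24.7 Sftpd counts per 100 Sftpa1 counts in C1q replicates 1 to 3, against 19.1, 17.5 and 20.6 in saline replicates 1 to 3. The C1q ratios all lay above the saline ratios, C1q replicate 2 by a small margin over saline replicate 3. Sftpa1 counts per 100 Sftpb counts were 76.5, 78.6 and 75.5 in C1q replicates 1 to 3, against 85.2, 87.6 and 80.5 in saline replicates 1 to 3, with no overlap. Sftpd counts per 100 Sftpb counts overlapped, at 22.6, 16.4 and 18.7 in C1q replicates 1 to 3, against 16.3, 15.4 and 16.5 in saline replicates 1 to 3. Sftpc counts per 100 Sftpb counts overlapped, at 431 to 513 in C1q and 458 to 605 in saline libraries. Of the other gene-to-gene ratios computed, those of Napsa and Lpcat1 to Sftpb overlapped, as did those of Etv5 and Abca3 to Slc34a2. The ratio of Ctsh, a protease gene described below, to Napsa did not overlap.

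**Figure D1:**
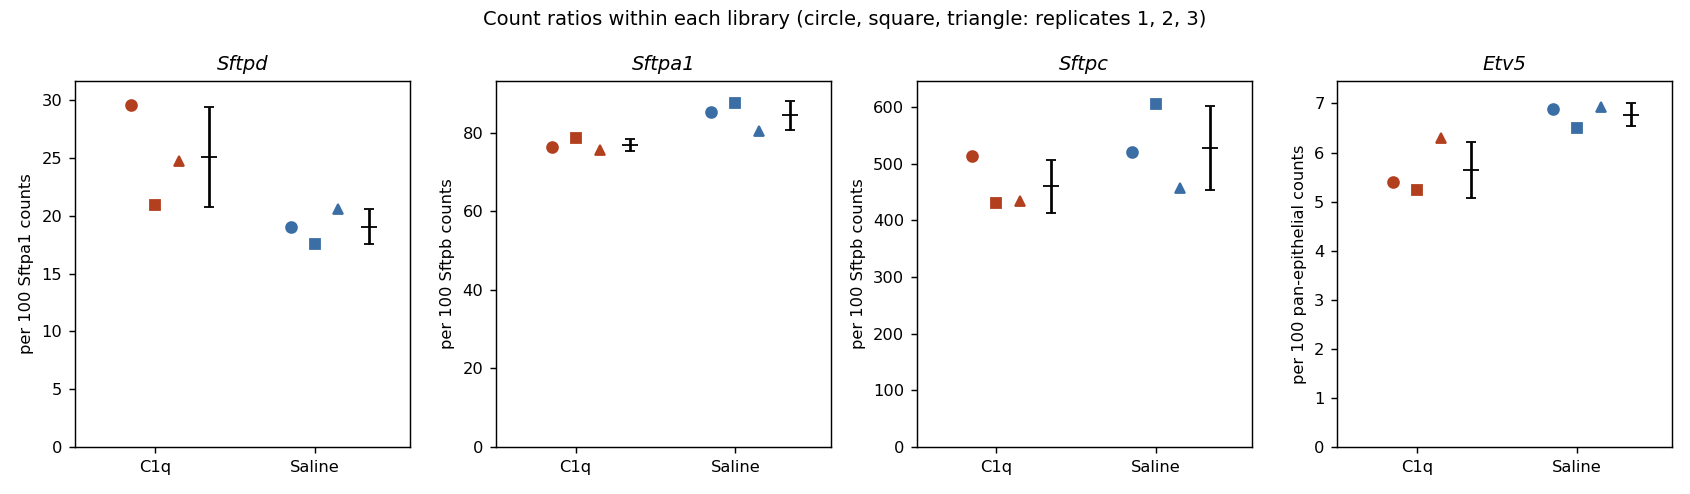
Counts of 1 gene per 100 counts of another gene, or per 100 summed counts of 18 pan-epithelial genes, in each library (vertical axes, linear from 0), with C1q left of saline and bars giving mean ± SD (n = 3). The Sftpd to Sftpa1 ratio averaged 25.1 ± 4.34 in C1q and 19.1 ± 1.51 in saline libraries, and the Sftpa1 to Sftpb ratio 76.9 ± 1.58 in C1q and 84.4 ± 3.65 in saline libraries. The Sftpc to Sftpb ratios overlapped, at 460 ± 46.7 in C1q and 528 ± 74.1 in saline libraries.

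The genes for processing and storing surfactant had higher means after C1q, and none passed. Napsa encodes napsin A, an aspartic protease that helps to cut the SP-B precursor. It stood at 573, 556 and 504 CPM in C1q replicates 1 to 3, against 439.8, 517 and 317 CPM in saline replicates 1 to 3. The groups overlapped through saline replicate 2, and the log2 fold change was 0.36 ± 0.19 (95% interval -0.058 to 0.77, adjusted p = 0.625).

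Abca3 encodes the transporter that loads phospholipid into lamellar bodies. It stood at 216, 243 and 238 CPM in C1q replicates 1 to 3, against 174, 237 and 188 CPM in saline replicates 1 to 3, a log2 fold change of 0.22 ± 0.16 (95% interval -0.13 to 0.57, adjusted p = 0.708). Saline replicate 2 was again level with the C1q libraries.

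Lamp3 encodes a glycoprotein of the lamellar body membrane, known in humans also from mature dendritic cells. It stood at 435, 555 and 547 CPM in C1q replicates 1 to 3, against 467, 496 and 339.9 CPM in saline replicates 1 to 3, a log2 fold change of 0.24 ± 0.18 (95% interval -0.17 to 0.64, adjusted p = 0.725). C1q replicate 1 lay below saline replicates 1 and 2. The 12 listed genes of mature dendritic cells summed to 327 to 381 CPM in C1q and 315 to 355 CPM in saline libraries. Their part in the Lamp3 values was not tested.

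Lpcat1 and Slc34a2 serve surfactant lipid and its phosphate. Lpcat1 encodes the acyltransferase that makes the saturated phosphatidylcholine of surfactant, and its level was 505, 494 and 588 CPM in C1q replicates 1 to 3, against 402, 483 and 384 CPM in saline replicates 1 to 3. It was the other of the 2 genes whose C1q libraries all lay above the saline range, which held for 8.12% of all genes tested. The log2 fold change was 0.32 ± 0.16 (95% interval -0.027 to 0.67, adjusted p = 0.612).

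Slc34a2 encodes the sodium-phosphate cotransporter of the type 2 cell surface. It stood at 936, 1060 and 1165 CPM in C1q replicates 1 to 3, against 771, 1105 and 823 CPM in saline replicates 1 to 3, with overlapping groups and a log2 fold change of 0.23 ± 0.18 (95% interval -0.17 to 0.63, adjusted p = 0.733).

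Etv5, an ETS family transcription factor needed to keep type 2 cell identity in mice, had the narrowest spread of the 10 in saline libraries. It stood at 101, 88.5 and 101 CPM in C1q replicates 1 to 3, against 97.4, 104 and 93.0 CPM in saline replicates 1 to 3. The log2 fold change was -0.019 ± 0.14 (95% interval -0.33 to 0.29, adjusted p = 0.980). Set against the summed counts of 18 pan-epithelial genes, Etv5 had 5.41, 5.25 and 6.30 counts per 100 in C1q replicates 1 to 3, against 6.89, 6.49 and 6.92 in saline replicates 1 to 3, with no overlap. That ratio too was singled out after its values were seen, and it is the 1 ratio of the 10 genes to the pan-epithelial sum in which the groups did not overlap.

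**Figure D2:**
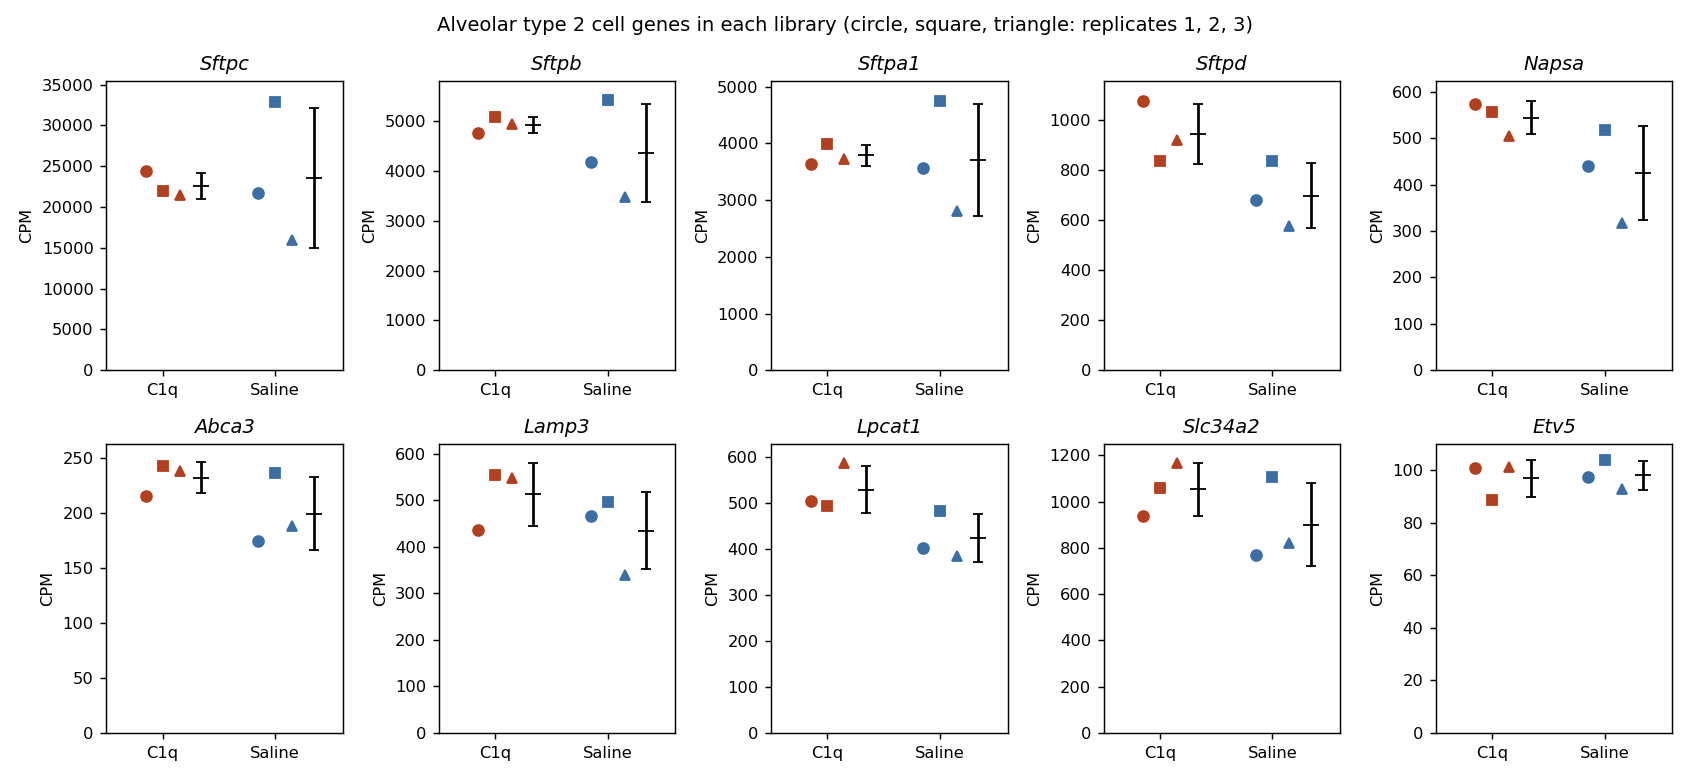
Level of each gene in each library in CPM (vertical axes, linear from 0), with C1q libraries left of saline libraries, symbols for replicates 1 to 3 and bars giving mean ± SD (n = 3). Saline replicate 2 (square) is the highest saline library for all 10 genes, and Sftpd and Lpcat1 are the genes whose C1q libraries do not reach down into the saline range.

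In all, 8 of the 10 genes had a positive log2 fold change, where 48.2% of all genes tested had one, and the median was 0.22 against -0.012 for all genes tested. The positive values were not particular to type 2 genes: of 18 pan-epithelial genes, 16 were positive, with a median of 0.27. Called genes numbered 0 of 10 by edgeR, by DESeq2 and by limma-voom. An unadjusted p under 0.05 was found for 1 of the 10, Sftpd, by edgeR and by limma-voom. By DESeq2 it was found for Sftpd and Lpcat1. The 95% intervals leave room for changes in either direction for every gene but Sftpd, whose interval was not adjusted for the number of genes. Abca3, Napsa and Slc34a2 overlap genes on the opposite strand in GENCODE M21, and since no source used here states how strand was handled, reads of those partners cannot be told apart from theirs.

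**Figure D3:**
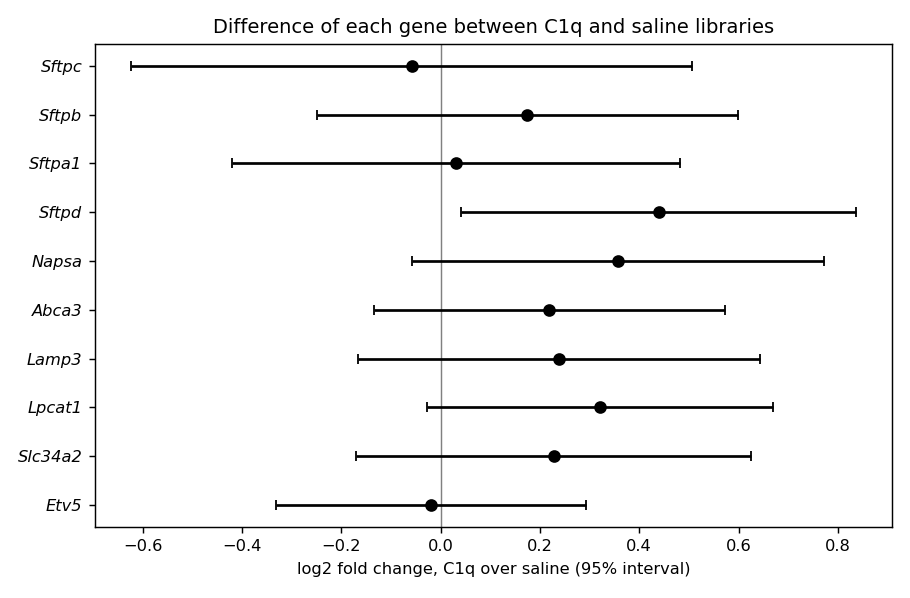
Log2 fold change of each gene, C1q over saline, from the edgeR fit (points) with its 95% interval (bars, not adjusted for the number of genes). Values run from -0.058 for Sftpc to 0.44 for Sftpd, and the Sftpd interval is the 1 that does not include 0.

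The 10 genes were spread less among the C1q libraries than among the saline libraries, with Etv5 as the exception. The highest library exceeded the lowest 1.14-fold in C1q and 2.06-fold in saline for Sftpc, and 1.10-fold in C1q and 1.70-fold in saline for Sftpa1. The same ratio was 1.14 in C1q and 1.63 in saline for Napsa, and 1.07 in C1q and 1.56 in saline for Sftpb. The SD of log2 CPM was larger in saline than in C1q libraries for 9 of the 10 genes and for 58.4% of all genes tested. Saline replicate 3 was the lowest of the 6 libraries for 7 of the 10 genes (23.6% of all genes tested), and saline replicate 2 the highest for 4 (19.6% of all genes tested). The 10 genes were read in the same 6 libraries, so these counts are not 10 separate observations. The mean centred log2 level of the 10 genes was 0.084, 0.099 and 0.13 in C1q replicates 1 to 3, against -0.14, 0.19 and -0.36 in saline replicates 1 to 3.

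Levels of other epithelial and macrophage genes also differed between the saline libraries. The summed level of 15 club and airway secretory genes was 12924, 16582 and 10024 CPM in C1q replicates 1 to 3. In saline replicates 1 to 3 it was 16276, 29864 and 12178 CPM, with saline replicate 2 far above the rest. Most of each sum was the gene Scgb1a1, at 7529, 10521 and 6138 CPM in C1q replicates 1 to 3. In saline replicates 1 to 3 Scgb1a1 stood at 10705, 23043.5 and 7985 CPM. The 18 pan-epithelial genes summed to 1866, 1688 and 1604 CPM in C1q replicates 1 to 3, against 1414, 1602 and 1344 CPM in saline replicates 1 to 3, and 16 of the 18 had a positive log2 fold change. The 20 alveolar macrophage genes summed to 4151, 4249.9 and 3521 CPM in C1q replicates 1 to 3, against 2590, 3517 and 1723 CPM in saline replicates 1 to 3. Chil3 alone gave 2575, 2783 and 2317 CPM of the C1q sums and 1328, 2030 and 749 CPM of the saline sums. The sum of this list therefore largely follows 1 gene. No gene of these lists was at 0 in any library. In bulk RNA, fewer type 2 cells and less RNA of a gene per cell cannot be told apart, and the part of the cell mixture in the values above was not tested.

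**Figure D4:**
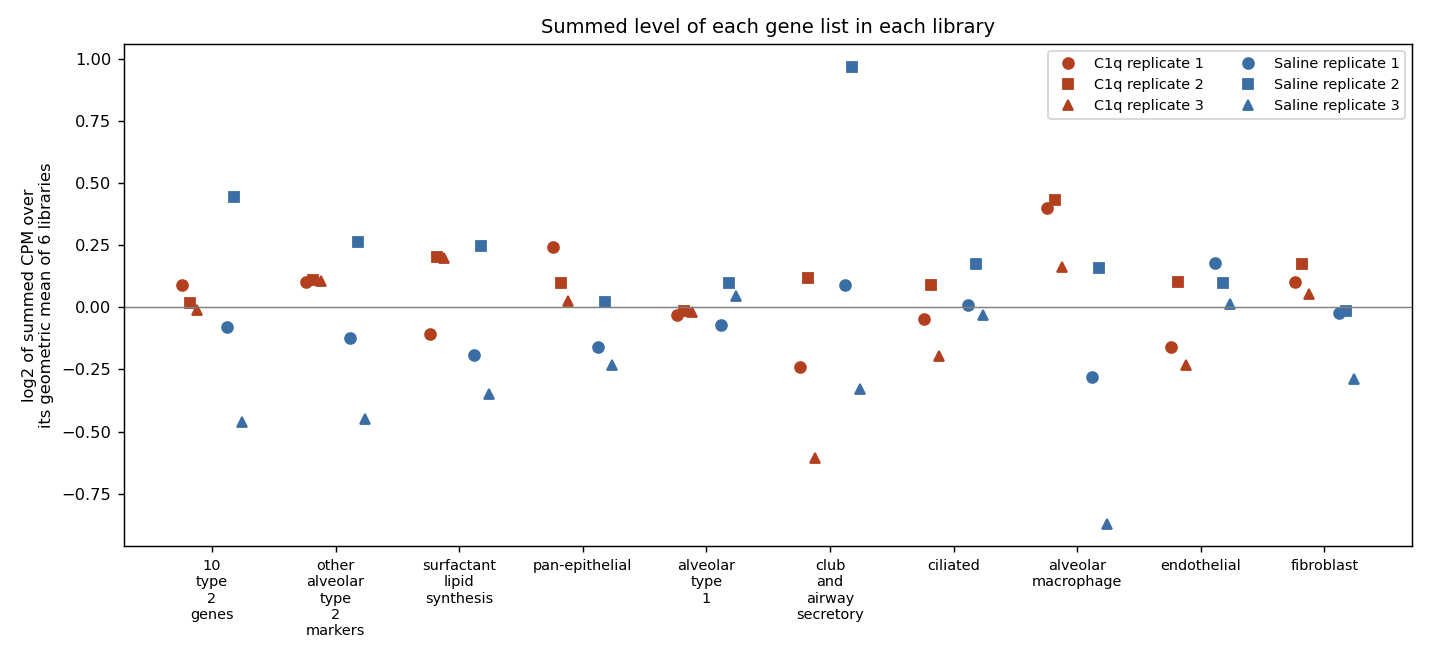
Summed CPM of each gene list in each library, as log2 of its ratio to the geometric mean of the 6 libraries (vertical axis), with C1q points left of saline points. Saline replicate 2 is the highest library for both type 2 lists and for the surfactant lipid, alveolar type 1, club and ciliated lists. Saline replicate 3 is the lowest for both type 2 lists and for the surfactant lipid, pan-epithelial, alveolar macrophage and fibroblast lists.

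With library sizes set to the summed pan-epithelial counts, an alternative chosen after seeing the data, the median log2 fold change of all genes tested was -0.26. The median of the 10 genes was then -0.0027 and 5 of the 10 were positive, with Sftpd at 0.20, Napsa at 0.13 and Etv5 at -0.26.

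By closeness of their profile over the 6 libraries, the genes most like the mean of the 10 were Akt2, Gm2423, Jagn1, Grina and Tsc22d1. Likeness was measured as the root mean square difference of centred log2 CPM, which was 0.023 for Akt2, a protein kinase of insulin signalling, 0.036 for Gm2423 and 0.037 for Jagn1, and 0.044 and 0.045 for Grina and Tsc22d1. Among the 10, it was smallest for Sftpb (0.038) and largest for Sftpc (0.19). Of 12482 other genes with a mean of at least 5 CPM, 3 were closer than Sftpb and 1899 (15.2%) were closer than Sftpc. The distance of Sftpc is a wide limit, so the larger count does not show how many genes share the profile.

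Further markers and enzymes of type 2 cells, and markers of other cells, were read from lists with 265 distinct genes tested besides the 10. The lists were chosen with earlier results of these data known. Of the 265 genes, 0 passed by edgeR over all genes and 0 passed by limma-voom. By edgeR 49 had an unadjusted p under 0.05. Of all genes tested, 4.22% had one in the higher direction and 3.94% in the lower direction. DESeq2 called 7, all higher in C1q libraries: Clu, Krt15, Cd14, Mfap4 and the collagen genes Col1a1, Col1a2 and Col3a1. Among these, Krt15 had saline levels of only 0.643 to 3.74 CPM. Of 18 other type 2 markers tested, 13 had a log2 fold change above 0 (median 0.16). Of the 18, 3 had an unadjusted p under 0.05 in the higher direction, where 4.22% of all genes tested had one. Ctsh encodes cathepsin H, a protease that like napsin A cuts the SP-B precursor. It stood at 445, 329 and 345 CPM in C1q replicates 1 to 3, against 221, 303 and 188 CPM in saline replicates 1 to 3, with no overlap and a log2 fold change of 0.65 ± 0.20 (adjusted p = 0.522). The others with an unadjusted p under 0.05 were Il33, an alarmin cytokine gene, and Egfl6, at 0.41 ± 0.16 (adjusted p = 0.598), and both had all C1q libraries above the saline range. Chosen after their values were seen, S100g had 70.2, 98.1 and 66.4 CPM in C1q replicates 1 to 3, against 73.6, 237 and 53.4 CPM in saline replicates 1 to 3. Sfta2 had 18.8, 24.3 and 16.3 CPM in C1q replicates 1 to 3, against 19.0, 79.3 and 13.8 CPM in saline replicates 1 to 3. Both thus stood out in saline replicate 2.

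Genes that make surfactant lipid showed small differences in mean. Of 24 tested, 16 had a log2 fold change above 0 (median 0.13), and values ran from -0.28 to 0.41. Elovl1, a fatty acid elongase, stood at 398, 424 and 335 CPM in C1q replicates 1 to 3, against 282, 327 and 264 CPM in saline replicates 1 to 3, with no overlap (log2 fold change 0.41 ± 0.16, adjusted p = 0.602). Gpam, which starts glycerolipid synthesis, was at 0.41 ± 0.16 (adjusted p = 0.602) and Lpcat3, another acyltransferase, at 0.30 ± 0.17 (adjusted p = 0.634). Fasn and Scd1, named after their values were seen, make and desaturate fatty acids. Fasn stood at 206 ± 16.8 CPM in C1q and 181 ± 47.1 CPM in saline libraries and Scd1 at 1583 ± 325 CPM in C1q and 1336 ± 538 CPM in saline libraries (SD, n = 3 each). Of 12 cholesterol synthesis targets of SREBP, 8 were positive with a median of 0.10, and 0 had an unadjusted p under 0.05. Its leading genes were Mvd at 0.35 ± 0.25, Lss at -0.23 ± 0.26 and Fdft1 at 0.17 ± 0.19.

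Among 21 genes of lamellar body transport and secretion, of which Abca3, Lamp3 and Napsa are 3, 13 had a log2 fold change above 0 (median 0.091). After Ctsh, the leading genes were Vamp2, a vesicle fusion protein, and Rab38, a small GTPase of lysosome-related organelles. Vamp2 stood at 50.6, 67.0 and 55.1 CPM in C1q replicates 1 to 3, against 70.4, 98.8 and 72.5 CPM in saline replicates 1 to 3, all C1q libraries being below the saline range as for 5.96% of all genes tested (log2 fold change -0.48 ± 0.18, adjusted p = 0.598). Rab38 was at 0.85 ± 0.36 on the log2 scale (adjusted p = 0.602) from low levels of 6.35 to 11.3 CPM in C1q and 3.74 to 5.67 CPM in saline libraries.

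Transcription factors of the alveolar epithelium were spread around 0, with 9 of 16 tested positive and a median log2 fold change of 0.0076. Nkx2-1, named after its values were seen, is the factor that sets lung epithelial identity, and it stood at 81.3 ± 7.43 CPM in C1q and 74.2 ± 8.32 CPM in saline libraries (SD, n = 3 each). Foxa1, a forkhead factor of endodermal epithelium, stood at 16.9, 14.1 and 14.0 CPM in C1q replicates 1 to 3, against 18.6, 28.7 and 27.3 CPM in saline replicates 1 to 3, with no overlap (log2 fold change -0.71 ± 0.23, adjusted p = 0.532). Foxp1, which many lung cell types express, was at -0.47 ± 0.16 (adjusted p = 0.548) and Elf5 at 0.48 ± 0.23 (adjusted p = 0.609). Of 13 genes of FGF signalling around Etv5, the growth factor Fgf7 and the inhibitors Spry1 and Spred2 led at -0.23 ± 0.21, -0.20 ± 0.18 and -0.29 ± 0.21, while 8 were positive with a median of 0.036 and 0 had an unadjusted p under 0.05.

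Lists named for altered states of type 2 cells had the highest medians among the epithelial lists. Bulk RNA does not show which cells made these transcripts. Transitional type 2 cells appear on the way to type 1 cells after injury. Their genes had a log2 fold change above 0 in 14 of 16 (median 0.42). Of the 16, 10 had an unadjusted p under 0.05 in the higher direction, where 4.22% of all genes tested had one. The list was chosen with earlier results of these data known. Itgb6, an integrin subunit of injured epithelium, stood at 41.2, 29.3 and 49.7 CPM in C1q replicates 1 to 3, against 26.0, 22.7 and 23.9 CPM in saline replicates 1 to 3, with no overlap (log2 fold change 0.72 ± 0.21, adjusted p = 0.501). Clu, a secreted chaperone, had 357.6, 172 and 289 CPM in C1q replicates 1 to 3, against 133, 133 and 108 CPM in saline replicates 1 to 3, and missed the threshold (adjusted p = 0.277), as did Tnip3, a regulator of NF-kB (0.85 ± 0.27, adjusted p = 0.532). Many genes of this list are also made by fibroblasts or macrophages. Of the fibroblast list 11 of 12 genes and of the alveolar macrophage list 15 of 20 had positive log2 fold changes, with medians of 0.50 and 0.20, and 0 genes of either list passed by edgeR. The part of those cells in this list was not tested. Krt8, the keratin that names the transitional state, was named here after its values were seen. It stood at 235 ± 9.63 CPM in C1q and 195 ± 14.5 CPM in saline libraries (SD, n = 3 each). Its log2 fold change was 0.26 ± 0.14 (adjusted p = 0.626). Krt8, Krt19 and Cldn4 are also in the pan-epithelial list, whose median was 0.27. In the list of type 2 cells primed by inflammation, 7 of 9 tested were positive with a median of 0.38. It was led by Il33, the glycoprotein gene Lrg1 at 0.66 ± 0.22 (adjusted p = 0.547) and the prostaglandin E synthase gene Ptges at 0.44 ± 0.18 (adjusted p = 0.602). The 2 negative genes were Ifitm3 at -0.42 ± 0.22 and Ly6i at -0.29 ± 0.28. Orm1, Orm2 and Saa3 did not pass the filter on low counts. The part of other cell types in this list was not tested either.

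**Figure D5:**
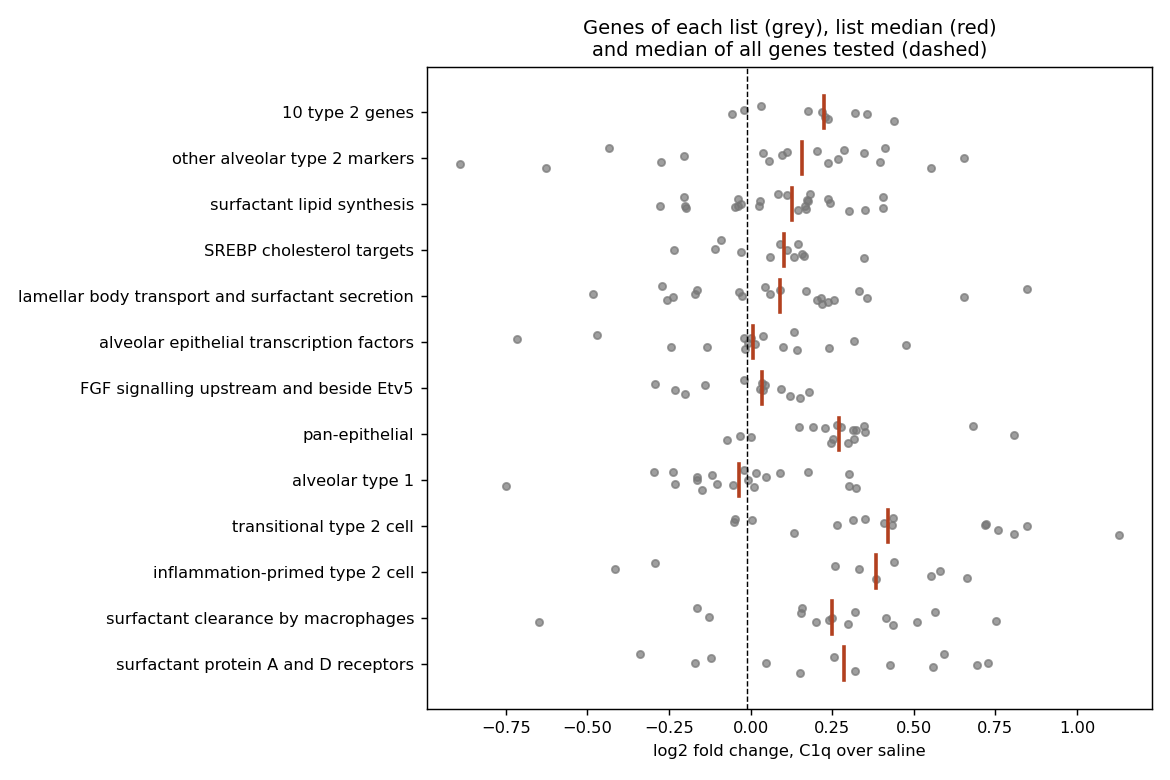
Log2 fold change, C1q over saline, of every tested gene in each list (grey points), with the list median (red) and the median of all genes tested (dashed, -0.012). The median is 0.22 for the 10 type 2 genes, 0.42 for the transitional type 2 list and -0.037 for the alveolar type 1 list.

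Genes of the type 1 cell, into which type 2 cells develop, were on both sides of 0. Of 20 tested, 8 were positive with a median of -0.037. Hopx, a marker of type 1 cells, stood at 63.6, 100.5 and 80.4 CPM in C1q replicates 1 to 3, against 118, 198 and 95.2 CPM in saline replicates 1 to 3, with overlapping groups (log2 fold change -0.75 ± 0.27, adjusted p = 0.563). Gprc5a and the water channel gene Aqp5 were each at 0.30, with SE of 0.14 and 0.15 and no overlap. In airway lists, 5 of 15 club and airway secretory genes and 2 of 11 ciliated cell genes were positive, with medians of -0.13 and -0.26. The club and airway secretory list was led by Krt15, a keratin gene, at 3.03 ± 0.66, Scgb3a1 at -1.32 ± 0.44 and Lypd2 at -0.78 ± 0.30. Krt15 stood at 24.3, 10.9 and 6.32 CPM in C1q replicates 1 to 3. In saline replicates 1 to 3 it stood at 0.643, 0.810 and 3.74 CPM. In saline replicates 1 and 2 this is less than a count of 3, so its fold change rests on very few counts. The leading ciliated genes were Dynlrb2 at -0.72 ± 0.30, Tmem212 at -0.56 ± 0.24 and Fam183b at -1.06 ± 0.50.

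Surfactant is cleared largely by alveolar macrophages under the growth factor GM-CSF, and genes of that route had positive log2 fold changes in 12 of 15 tested, with a median of 0.25. Csf2rb, the beta chain of the GM-CSF receptor, stood at 70.5, 59.3 and 72.2 CPM in C1q replicates 1 to 3, against 40.2, 38.1 and 41.5 CPM in saline replicates 1 to 3. The groups were well apart, with a log2 fold change of 0.75 ± 0.15, but Csf2rb missed the threshold (adjusted p = 0.245). Its neighbour Csf2rb2, a close paralogue whose reads could be shared with it, was at 0.57 ± 0.23 (adjusted p = 0.602) and the repressor gene Bach2 at -0.65 ± 0.27 (adjusted p = 0.602). The alveolar macrophage list was led by Ctsk at 0.84 ± 0.22, Chil3 at 0.90 ± 0.29 and Atp6v0d2 at 0.53 ± 0.19. Of its 20 genes, 15 were positive and 5 negative, with a median of 0.20. Named after their values were seen, Ear1 was at -0.47 ± 0.32, Fabp4 at -0.42 ± 0.29 and Siglecf at 0.039 ± 0.21. Of 12 proposed receptors and partners of SP-A and SP-D, 9 were positive with a median of 0.29. The lipopolysaccharide co-receptor gene Cd14 stood at 289.8, 234 and 246 CPM in C1q replicates 1 to 3, against 159, 142 and 164 CPM in saline replicates 1 to 3 (log2 fold change 0.73 ± 0.15, adjusted p = 0.277). Tlr2 was at 0.59 ± 0.23 (adjusted p = 0.602) and Sirpa, an inhibitory receptor that binds the heads of SP-A and SP-D, at 0.32 ± 0.14 (adjusted p = 0.606).

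Other cell types gave the following values on the log2 scale. The pan-epithelial list was led by the protease inhibitor gene Spint1 at 0.68 ± 0.18, the tight junction gene Cldn4 at 0.81 ± 0.30 and the adherens junction gene Cdh1 at 0.35 ± 0.14. Of 12 endothelial genes, 1 was positive with a median of -0.22, led by Ramp2 at -0.43 ± 0.21, Eng at -0.37 ± 0.18 and Kdr at -0.33 ± 0.17. The fibroblast list was led by Mfap4, Col1a2 and Col3a1, at 1.10 ± 0.19, 0.86 ± 0.16 and 1.30 ± 0.26. Of 11 mature dendritic cell genes tested, 7 were positive, led by Fscn1 at 0.59 ± 0.29, Flt3 at 0.72 ± 0.38 and Cd209a at 0.43 ± 0.28. Of 8 neutrophil genes, 7 were positive with a median of 0.33, led by Il1r2 at 0.59 ± 0.24, Trem1 at 0.40 ± 0.17 and Retnlg at 0.63 ± 0.29. All 4 haemoglobin genes tested were negative, at -0.97 ± 0.46 for Hba-a1, -0.73 ± 0.48 for Hbb-bs and -0.70 ± 0.46 for Hba-a2.

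On GRCm38, all 10 type 2 genes are annotated as protein-coding in GENCODE M21. Sftpc spans 70520949 to 70524081 on chromosome 14, Sftpb 72304610 to 72314371 on chromosome 6, Sftpa1 41131782 to 41136452 and Sftpd 41172214 to 41185149 on chromosome 14. Napsa lies on chromosome 7 from 44572380 to 44586862, Abca3 on chromosome 17 from 24351950 to 24410201, Lamp3 on chromosome 16 from 19653378 to 19706375 and Etv5 on chromosome 16 from 22381309 to 22439719. Lpcat1 lies on chromosome 13 from 73467197 to 73516422 and Slc34a2 on chromosome 5 from 53038081 to 53071664.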

How the data were processed

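The deposited values are raw counts, whole numbers per gene symbol and library with no normalization by the authors. Per the submitters' processing notes, the build was GRCm38 and the tools included Bowtie2 2.4.2 and cutadapt 2.1.0. No source used here states the counting step, the annotation, strand handling or any use of molecular identifiers. Whether a count depends on transcript length is therefore unknown, and the levels of different genes are not ranked. Samples were grouped by their treatment label and numbered in order of deposition, numbers that pair nothing.

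The 10 genes and all lists were chosen with earlier results of these data known. Genes kept by filterByExpr (13473, holding 98.2% to 99.3% of each library's counts) received TMM factors, and edgeR 4.0.16 gave the test (glmQLFit and glmQLFTest, two-sided, R 4.3.3), with Benjamini-Hochberg adjustment over all genes kept and a threshold of 0.05. Adjusted p-values are from this test unless another fit is named. Standard errors come from the fold change and its F statistic, and 95% intervals from these. The test was checked on simulated data. Counting noise was exceeded in each of 15 library pairs (chi-square per degree of freedom 5.20 to 16.7). A count of 3 was worth 0.822 to 1.35 CPM. Of each list, the 3 tested genes with the smallest p were named. The profile measure used log2(CPM + 0.5). The alternatives were other scalings and filters, DESeq2 1.42.0, limma-voom (limma 3.58.1) and leaving out each library. Promoter sequences are from RefSeq (GRCm38.p6).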

Additional observations from a re-analysis of the deposited data

How the results depend on the processing

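Called genes over the whole table numbered 4, all higher in C1q libraries, and 0 of the 10 type 2 genes were called under any of the 15 alternatives. With no filter on low counts 373 genes were called (158 higher and 215 lower), with DESeq2 36 (35 higher and 1 lower), and with scaling to pan-epithelial counts 2, both higher. With 1 library left out the number of calls ran from 0 to 10 (0 to 9 higher and 0 to 1 lower): it was 0 on leaving out saline replicate 1, 10 for saline replicate 3, 1 for C1q replicate 1 and 2 for C1q replicate 2. The causes were not tested.

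Sftpd, Napsa, Lamp3, Lpcat1 and Slc34a2 had a positive log2 fold change in all 15 alternatives, some of them close to 0. On scaling to pan-epithelial counts Sftpd was at 0.20, Napsa at 0.13, Lpcat1 at 0.091, Lamp3 at 0.015 and Slc34a2 at 0.0057. The adjusted p of Sftpd ran from 0.233 to 0.854 over its alternatives. With 1 library left out, its unadjusted edgeR p ran from 0.0069 without saline replicate 2 to 0.136 without C1q replicate 1. Among those fits it was under 0.05 only without saline replicate 2 and without C1q replicate 2 (0.035). On scaling to pan-epithelial counts it was 0.215. Signs changed on scaling to pan-epithelial counts for Sftpa1 (-0.19), Sftpb (-0.049) and Abca3 (-0.011), and for Etv5 with no filter (0.012) and with DESeq2 (0.00024). With 1 library left out, Sftpc ran from -0.27 to 0.27, Sftpa1 from -0.13 to 0.26, Sftpb from 0.037 to 0.37, Lamp3 from 0.090 to 0.35 and Napsa from 0.19 to 0.53, in each case lowest without saline replicate 3 and highest without saline replicate 2. Sftpd ran from 0.32 to 0.59 in the same way. Abca3 ran from 0.13 to 0.37 and Slc34a2 from 0.13 to 0.41, lowest without saline replicate 1 and highest without saline replicate 2. Lpcat1 ran from 0.24 to 0.43, lowest without C1q replicate 3 and highest without saline replicate 2, and Etv5 from -0.055 to 0.044. The median of the 10 genes was 0.37 without saline replicate 2 and 0.13 without saline replicate 3. No paired analysis was possible because the groups share no replicate numbers in the labels. Standard errors of the 10 log2 fold changes were 0.14 to 0.26, and how much of each came from counting error was not tested.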
